A study of Mus musculus with 36 samples.

Results

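The 10 genes described here, *Serpinh1*, *Fkbp10*, *Ppib*, *P3h1*, *Crtap*, *P4ha1*, *Plod1*, *Plod2*, *Bmp1* and *Lox*, encode proteins that fold, hydroxylate, trim or crosslink collagen. They were taken by symbol from a table of 56246 genes, of which 15933 had a mean of at least 0.5 scaled TPM and were tested, and all 10 were among these. Bulk RNA had been sequenced from tibiae of 6 month-old mice after epiphyses and marrow were removed, which leaves mostly cortical bone. The 12 wild-type mice carry the treatment label NT. The 12 saline-treated and 12 ABE-treated mice all have the genotype LMNAG608G/G608G, written LMNA G/G below, which means a double copy of a human BAC transgene with the progeria mutation of *LMNA* and also with *RAB25*, in the C57BL/6J line. These mice received saline or ABE by retro-orbital injection at postnatal day 14. The adenine base editor (ABE) is an enzyme that rewrites the mutant base, and it was delivered in pieces by a pair of AAV9 vectors, the pieces being joined by inteins. Each group had 6 males and 6 females.

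Fibrillar collagen is built from procollagen chains that are modified while they fold in the endoplasmic reticulum, where prolyl hydroxylases stabilize the helix, lysyl hydroxylases prepare the sites of later crosslinks, and chaperones hold the chains until export. Outside the cell the propeptides are cut off and lysyl oxidase starts the crosslinks that give bone matrix its strength. Osteoblasts carry out most of this work in bone, and inherited defects in many of these genes cause osteogenesis imperfecta or related brittle bone syndromes.

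Scaled TPM are the deposited TPM (reads divided by the length of their gene and brought to a common total) divided by 1 factor per library, so that the median ratio of a gene to its average over libraries was equal in all libraries. Reads on genes ranged from 48064068 to 116206662 per library. Genes so short that the TPM calculation counted them as 1 base held between 84.7% and 96.6% of a library's TPM, as recovered from the values, and the factor ranged from 0.217 in 1 ABE-treated female (ABE replicate 1) to 1.56. Each member had at least 1345 reads in every library. The paper describes the groups as littermates, and the labels give no litters. The mouse numbers of the wild-type mice form a series of their own, so a batch of mice, if there was one, and the genotype cannot be told apart. Markers of osteoblasts and osteocytes were above 0 in all libraries. Beside the marker counts below, 27.7% of all genes tested were higher and 24.6% lower in saline-treated than in wild-type mice. These shares were 35.0% and 35.2% for ABE-treated against wild-type mice, and 23.2% and 25.1% for ABE-treated against saline-treated mice. The summed level of 6 osteocyte markers lay between 11.3 and 51.6 scaled TPM in wild-type, 173 and 496 in saline-treated and 177 and 352 in ABE-treated libraries, with 6 of 6 markers higher in each LMNA G/G group than in wild-type, while for osteoblasts 3 of 6 were higher in each and the sums overlapped, at 138 to 638, 157 to 653 and 275 to 568. The sum of 6 skeletal muscle markers ran from 159.9 to 2415, from 249.8 to 6106 and from 825 to 10078 (4 and 6 of 6 higher than in wild-type, and 5 of 6 higher in ABE-treated than in saline-treated mice). The sum of 6 tendon and fibroblast markers ran from 8.44 to 45.5, from 4.45 to 31.6 and from 13.4 to 63.6 (1 higher and 1 lower, then 4 higher and 1 lower, against wild-type). Between ABE-treated and saline-treated mice 5 of 6 tendon and fibroblast and 4 of 5 tested smooth muscle markers were higher, and 5 of 6 neutrophil and 4 of 6 erythroid markers were lower. Among markers left from marrow, 2 of 6 neutrophil genes were higher in saline-treated mice and 2 of 6 lower in ABE-treated mice, 5 of 6 B cell genes were lower in both, and 1 and 4 of 6 erythroid genes were lower. Of 5 tested osteoclast markers 5 were higher than in wild-type with saline and 4 with ABE, while 4 were lower in ABE-treated than in saline-treated mice. All 3 tested chondrocyte markers were lower than in wild-type in both LMNA G/G groups, and 2 were higher with ABE than with saline. Of 6 endothelial markers 2 and 5 were higher than in wild-type, and 4 higher with ABE than with saline. Of 5 tested adipocyte markers 1 was higher and 1 lower with saline, 1 higher and 2 lower with ABE, and 4 lower with ABE than with saline. No marker of these lists was at 0 in any library, and the part of these cells in the results below was not tested beyond the fits with muscle or marrow markers as covariates. In bulk samples fewer cells of a type and less RNA per cell cannot be told apart.

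For 6 of the 10 genes the RefSeq promoter table of GRCm38.p6 held entries, 7 in all because *P3h1* has 2. The 250 bases before the start are shown for *P4ha1*, which was higher in ABE-treated than in saline-treated mice, for *Ppib*, which was lower, and for *Serpinh1*, the member with the highest level. *Plod1* was also higher in ABE-treated than in saline-treated mice, but its window is not shown. Capitals mark ACGTG, or its reverse complement CACGT, the core of hypoxia response elements that also occurs inside other elements such as CACGTG. The windows are chr10:59323046-59323295 on the plus strand for *P4ha1*, chr9:66059919-66060168 on the plus strand for *Ppib* and chr7:99353240-99353489 on the minus strand for *Serpinh1*, each written 5′ to 3′ along its gene.
P4ha1: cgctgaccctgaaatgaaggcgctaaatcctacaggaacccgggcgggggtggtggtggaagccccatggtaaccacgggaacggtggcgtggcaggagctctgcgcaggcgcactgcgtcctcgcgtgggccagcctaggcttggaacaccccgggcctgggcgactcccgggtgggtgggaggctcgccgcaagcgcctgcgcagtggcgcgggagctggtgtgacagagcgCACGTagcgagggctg
Ppib: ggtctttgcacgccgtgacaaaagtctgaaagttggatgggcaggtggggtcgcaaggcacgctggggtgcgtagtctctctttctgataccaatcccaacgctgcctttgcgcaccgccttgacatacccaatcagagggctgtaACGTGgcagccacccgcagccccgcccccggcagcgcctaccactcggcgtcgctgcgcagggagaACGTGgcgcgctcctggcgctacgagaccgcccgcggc
Serpinh1: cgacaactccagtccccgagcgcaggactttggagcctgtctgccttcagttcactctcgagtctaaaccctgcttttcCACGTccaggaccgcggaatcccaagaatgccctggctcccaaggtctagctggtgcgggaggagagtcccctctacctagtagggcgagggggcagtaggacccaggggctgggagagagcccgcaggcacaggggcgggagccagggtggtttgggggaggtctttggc
The letters occurred once in *P4ha1*, 16 to 12 bases before the start on the reverse strand, and once in *Serpinh1*, 171 to 167 bases before it on the reverse strand. *Ppib* held them at 104 to 100 and at 38 to 34 bases, both on the forward strand. The second *P3h1* entry held them 31 to 27 bases before its start on the forward strand and 19 to 15 bases on the reverse strand. The first *P3h1* entry and those of *Crtap* and *Plod1* did not contain these letters, so 4 of the 7 entries held them, among them all of the windows shown. With both strands searched, 16.6% of 32851 windows of this length held them, so a match is a description only. *Plod2*, *Fkbp10*, *Bmp1* and *Lox* are named only.

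The first comparison asks how bone of mice with the transgene differs from wild-type bone. In saline-treated LMNA G/G mice, 8 of the 10 genes were higher than in wild-type mice and 0 were lower (limma with Benjamini-Hochberg adjustment over all genes tested, adjusted p under 0.05), where 27.7% of all genes tested were higher. The median log2 fold change of the 10 genes was 0.46 and that of all genes tested was 0.018. *Plod2*, which hydroxylates lysines in the telopeptides, rose most, 2.20-fold on the log2(scaled TPM + 0.5) scale, which understates changes of low genes. *P3h1* and *Bmp1* did not pass the threshold. In ABE-treated mice 8 of the 10 were also higher than in wild-type mice and 0 were lower, where 35.0% of all genes were higher, and here *Ppib* and *Lox* did not pass. The median of the 10 genes was 0.40 in that comparison and -0.019 over all genes. Between ABE-treated and saline-treated mice, 2 of 10 genes were higher, *P4ha1* and *Plod1*, and 2 were lower, *Ppib* and *Lox*, where 23.2% of all genes were higher and 25.1% lower. Both LMNA G/G groups were set against the same wild-type libraries.

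**Figure D1:**
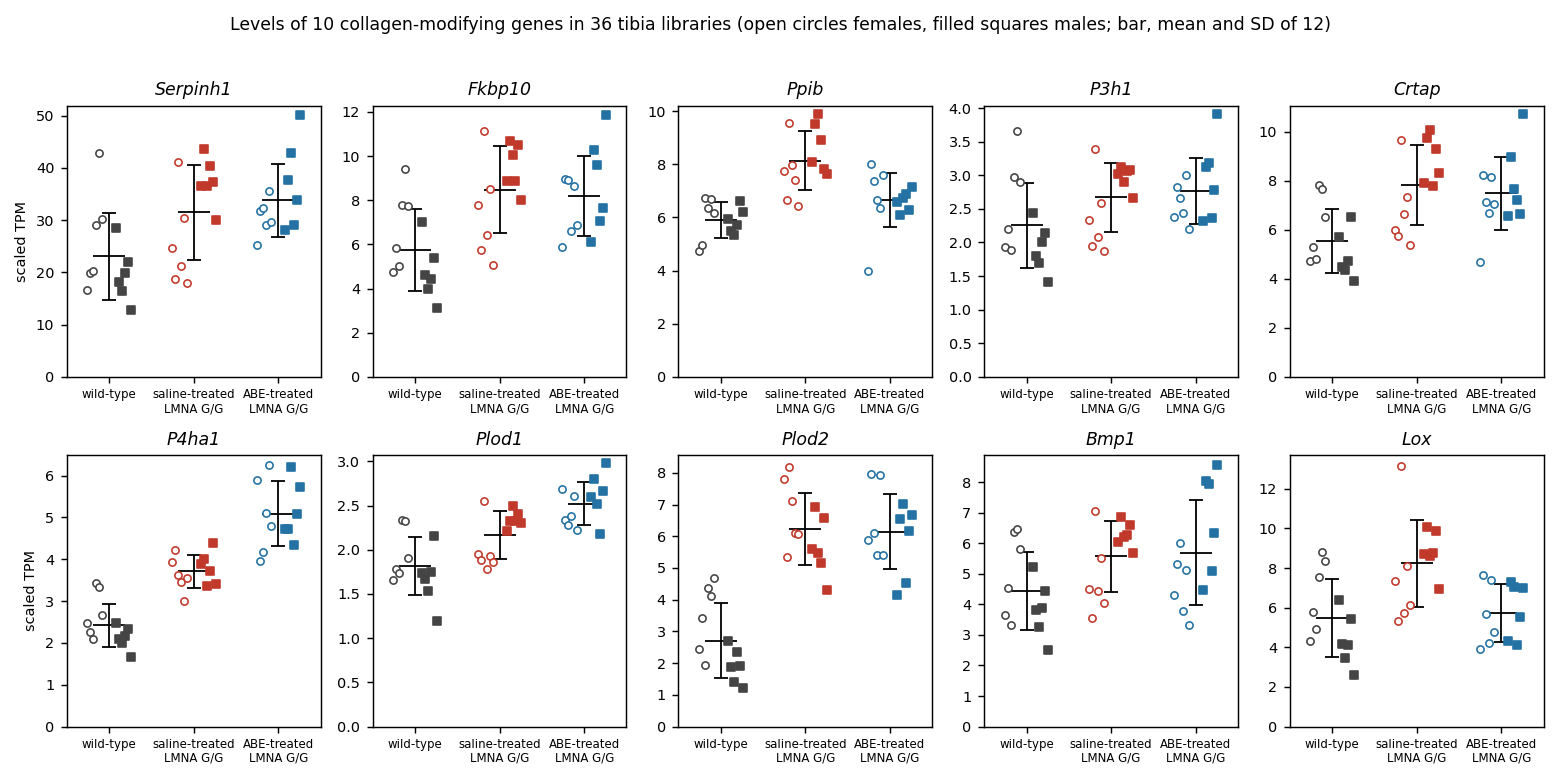
Level of each of the 10 genes in scaled TPM (vertical axis) in 36 tibia libraries, by group. Open circles are females, filled squares males, and bars give the mean and SD of 12 libraries. The ABE-treated libraries of *P4ha1* sit between 3.95 and 6.26, all above the wild-type libraries, and *Lox* is highest in the saline-treated group.

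Among the chaperones, *Serpinh1* (ENSMUSG00000070436.12, chromosome 7 from 99345376 to 99353239 of GRCm38, minus strand) encodes HSP47, which binds the folded procollagen helix. It had the highest level per length of the 10 genes in 36 of 36 libraries. Its level lay between 12.8 and 42.8 scaled TPM in wild-type libraries (median 20.1), between 17.9 and 43.6 in saline-treated libraries (median 33.4) and between 25.3 and 50.04 in ABE-treated libraries (median 32.0). All 12 ABE-treated libraries lay above the wild-type median, and the 3 groups overlapped. *Serpinh1* was higher in saline-treated than in wild-type mice by 0.46 on the log2 scale (SE 0.16, adjusted p = 0.020) and in ABE-treated mice by 0.59 (SE 0.16, adjusted p = 0.0020). ABE-treated and saline-treated mice differed by 0.13 (95% CI -0.20 to 0.47, adjusted p = 0.52).

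*Fkbp10* (ENSMUSG00000001555.10, chromosome 11 from 100415697 to 100424824, plus strand) encodes FKBP65, a chaperone and prolyl isomerase that also assists lysyl hydroxylase 2. The 12 wild-type libraries ran from 3.10 to 9.42 scaled TPM (median 5.19), the saline-treated ones from 5.07 to 11.1 (median 8.68) and the ABE-treated ones from 5.90 to 11.8 (median 8.14). Of the saline-treated libraries, 11 of 12 were above the wild-type median and 4 were above every wild-type library. The log2 fold changes against wild-type were 0.54 in saline-treated mice (SE 0.15, adjusted p = 0.0024) and 0.51 in ABE-treated mice (SE 0.15, adjusted p = 0.0026).

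*P3h1*, *Crtap* and *Ppib* encode the complex that 3-hydroxylates proline. *P3h1* (ENSMUSG00000028641.16, chromosome 4 from 119232915 to 119248975, plus strand), its hydroxylase, ran from 1.41 to 3.66 scaled TPM in wild-type (median 2.07), from 1.87 to 3.39 in saline-treated (median 2.78) and from 2.20 to 3.91 in ABE-treated libraries (median 2.72). The difference of 0.22 between saline-treated and wild-type mice (SE 0.11) had an adjusted p of 0.080, and that of 0.26 in ABE-treated mice (SE 0.11) passed the threshold at an adjusted p of 0.025 from limma. *Crtap* (ENSMUSG00000032431.6, chromosome 9 from 114375134 to 114390675, minus strand), its helper protein without enzyme activity, lay between 3.93 and 7.83 scaled TPM in wild-type (median 5.06), between 5.38 and 10.1 in saline-treated (median 7.83) and between 4.70 and 10.7 in ABE-treated libraries (median 7.19). *Crtap* was higher by 0.46 in saline-treated (SE 0.12, adjusted p = 0.0013) and by 0.41 in ABE-treated mice (SE 0.12, adjusted p = 0.0025), with 6 and 4 of 12 libraries above every wild-type library.

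*Ppib* (ENSMUSG00000032383.7, chromosome 9 from 66060222 to 66066623, plus strand) encodes cyclophilin B, the prolyl isomerase of the complex, and was higher in saline-treated mice than in both other groups. Its levels ran from 4.75 to 6.74 scaled TPM in wild-type (median 6.05), from 6.44 to 9.91 in saline-treated (median 7.89) and from 3.97 to 8.03 in ABE-treated libraries (median 6.68). Of the saline-treated libraries 10 of 12 lay above every wild-type library, and 11 of 12 ABE-treated libraries lay below the saline-treated median. The log2 fold change was 0.43 in saline-treated mice against wild-type (SE 0.080, adjusted p = 4.39e-05) and -0.28 in ABE-treated against saline-treated mice (SE 0.080, adjusted p = 0.0056). That last call was lost with muscle markers (-0.20, adjusted p = 0.093) or marrow markers (-0.22, adjusted p = 0.075) as covariates. ABE-treated and wild-type mice differed by 0.15 (95% CI -0.015 to 0.31, adjusted p = 0.09996). The lowest ABE-treated library was ABE replicate 1, and without it the *Ppib* difference from wild-type was 0.21 with an adjusted p of 0.0071.

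*P4ha1* (ENSMUSG00000019916.14, chromosome 10 from 59323296 to 59373304, plus strand), the catalytic subunit of prolyl 4-hydroxylase, was 1 of the 2 members, with *Plod1*, that passed the threshold in all 3 comparisons. Its levels ran from 1.67 to 3.42 scaled TPM in wild-type (median 2.30), from 2.998 to 4.38 in saline-treated (median 3.67) and from 3.95 to 6.26 in ABE-treated libraries (median 4.95). All 12 ABE-treated libraries were above all 12 wild-type libraries, as was the case for 4.14% of all genes tested, and 9 of 12 were above every saline-treated library. The log2 fold change was 0.54 in saline-treated (SE 0.081, adjusted p = 1.35e-06) and 0.94 in ABE-treated mice against wild-type (SE 0.081, adjusted p = 2.79e-11). Between ABE-treated and saline-treated mice it was 0.40 (SE 0.081, adjusted p = 6.93e-04). With skeletal muscle markers as a covariate this last difference was 0.28 (adjusted p = 0.016), and with marrow markers it was 0.34 (adjusted p = 0.0064). *P4ha1* was the only member called between these groups with either covariate.

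The lysyl hydroxylases among the members are *Plod2* and *Plod1*. *Plod2* (ENSMUSG00000032374.14, chromosome 9 from 92542223 to 92608428, plus strand) ran from 1.21 to 4.69 scaled TPM in wild-type (median 2.40), from 4.32 to 8.20 in saline-treated (median 6.08) and from 4.14 to 7.98 in ABE-treated libraries (median 6.14). Both LMNA G/G groups lay mostly above wild-type, with 11 of 12 saline-treated and 10 of 12 ABE-treated libraries above every wild-type library. The log2 fold changes were 1.14 (SE 0.13, adjusted p = 1.17e-08) and 1.12 (SE 0.13, adjusted p = 8.89e-09), and ABE-treated and saline-treated mice differed by -0.019 (95% CI -0.28 to 0.24, adjusted p = 0.92). *Plod1* (ENSMUSG00000019055.15, chromosome 4 from 147909753 to 147936767, minus strand), which acts on lysines of the helix, ran from 1.198 to 2.34 scaled TPM in wild-type (median 1.75), from 1.78 to 2.55 in saline-treated (median 2.26) and from 2.18 to 2.98 in ABE-treated libraries (median 2.56). All 12 libraries of each LMNA G/G group were above the wild-type median, and the groups overlapped. Its log2 fold changes were 0.21 (SE 0.066, adjusted p = 0.0078) and 0.39 (SE 0.066, adjusted p = 3.77e-06) against wild-type, and ABE-treated mice exceeded saline-treated mice by 0.18 (SE 0.066, adjusted p = 0.023). The last call was lost with muscle markers (0.0996, adjusted p = 0.30) or marrow markers (0.075, adjusted p = 0.49) as covariates. *Plod1* had the lowest mean level of the 10 genes per length, at 2.17 scaled TPM over all libraries.

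Outside the cell, *Bmp1* (ENSMUSG00000022098.10, chromosome 14 from 70474558 to 70520234, minus strand), the proteinase that removes the C-terminal propeptide, ran from 2.51 to 6.49 scaled TPM in wild-type (median 4.15), from 3.56 to 7.07 in saline-treated (median 5.87) and from 3.32 to 8.58 in ABE-treated libraries (median 5.23). The groups overlapped over most of their range. Its log2 fold changes were alike in size, 0.32 in both, and lay on opposite sides of the threshold (limma adjusted p = 0.062 with saline and 0.045 with ABE, SE 0.14). *Lox* (ENSMUSG00000024529.14, on chromosome 18, minus strand), lysyl oxidase, ran from 2.59 to 8.82 scaled TPM in wild-type (median 5.19), from 5.34 to 13.2 in saline-treated (median 8.37) and from 3.91 to 7.63 in ABE-treated libraries (median 5.61). All 12 saline-treated libraries were above the wild-type median, and all 12 ABE-treated libraries were below the saline-treated median. *Lox* was higher by 0.58 in saline-treated than in wild-type mice (SE 0.16, adjusted p = 0.0033) and lower by -0.48 in ABE-treated than in saline-treated mice (SE 0.16, adjusted p = 0.015). The last difference was -0.50 with muscle markers (adjusted p = 0.057) and -0.57 with marrow markers (adjusted p = 0.056) as covariates, past the threshold in neither. ABE-treated and wild-type mice differed by 0.095 (95% CI -0.23 to 0.42, adjusted p = 0.61).

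**Figure D2:**
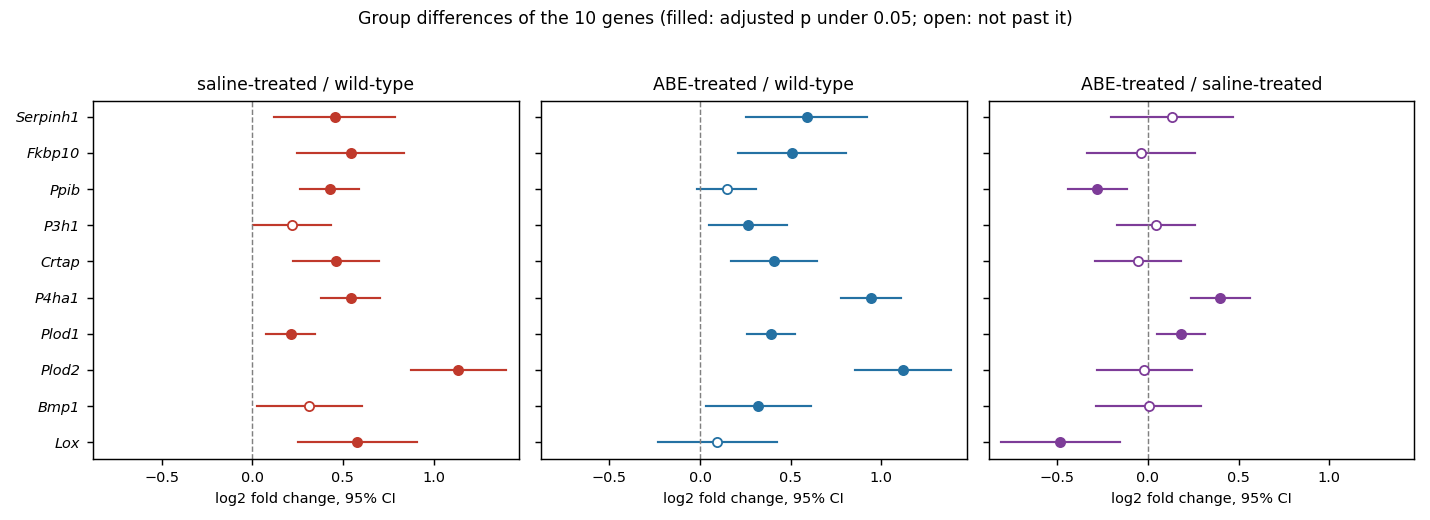
Log2 fold change of each gene (points) with its 95% confidence interval (lines) in the 3 comparisons, from limma on log2(scaled TPM + 0.5). Filled points passed an adjusted p of 0.05. *Plod2* lies farthest right in both comparisons with wild-type, and the right panel has *P4ha1* and *Plod1* above 0 and *Ppib* and *Lox* below it.

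The counts depended on the scaling of libraries and on marker covariates. On TPM as deposited, where the median of all genes was shifted by -0.13, -0.42 and -0.27 in the 3 comparisons, only *Plod2* and *P4ha1* remained higher than wild-type in either LMNA G/G group (6.48% of all genes higher and 22.6% lower with saline, 9.31% and 58.3% with ABE), and ABE-treated against saline-treated mice had 0 members higher and 2 lower, *Ppib* and *Lox* (3.44% of all genes higher and 40.7% lower). With marker levels of neutrophils, B cells and erythroid cells as covariates, 3 members were higher in saline-treated mice (*Ppib*, *Plod2* and *P4ha1*), beside 14.2% of all genes. In ABE-treated mice 4 were (also *Plod1*), beside 26.7% of all genes. With the muscle markers as covariate 6 and 4 were higher, beside 24.4% and 21.3% of all genes. *Crtap*, *Ppib*, *Plod2*, *Fkbp10* and *Lox* each overlap a gene on the opposite strand in GENCODE vM21. The libraries were stranded, but whether counting used the strand is not given in the sources used here, so these values may include reads of the neighbour.

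A further question is whether the enzymes kept pace with their main substrate. Type I collagen itself did not pass the threshold in the 3 comparisons over both sexes. In females alone *Col1a1* was lower than in wild-type with saline (-0.98 on the log2 scale, SE 0.33, adjusted p = 0.026) and with ABE (-0.82, SE 0.33, adjusted p = 0.035), and *Col1a2* was lower with saline (-0.83, SE 0.32, adjusted p = 0.0497), and both genes form the denominator of the ratios below. In males the 4 estimates lay between 0.30 and 0.40 and did not pass. *Col1a1* was at 1044 ± 431 scaled TPM (SD, n = 12) in wild-type mice, 861 ± 394 with saline and 879 ± 337 with ABE, and *Col1a2* at 263 ± 108, 236 ± 105 and 235 ± 81.6. When each gene was expressed as a log2 ratio to the mean of *Col1a1* and *Col1a2* in the same library, 7 of the 10 members were higher in saline-treated than in wild-type mice (*Serpinh1*, *Crtap*, *Plod2*, *P4ha1*, *Fkbp10*, *Bmp1* and *Lox*) and 0 lower, where 5.0% of all genes were higher. The median of the 10 ratios changed by 0.74 on the log2 scale and that of all genes by 0.30. *Plod2* had the largest change of the ratio, 1.42 (SE 0.21, adjusted p = 1.18e-05), and *Lox* followed at 0.86 (SE 0.19, adjusted p = 0.0034). In ABE-treated mice 5 ratios were higher than in wild-type (*Serpinh1*, *Plod2*, *P4ha1*, *Fkbp10* and *Bmp1*), where 13.7% of all genes were higher, with a median of 0.59 for the members and 0.17 for all genes. The ratio of *P4ha1* was higher by 1.14 (SE 0.24, adjusted p = 7.83e-04). Between ABE-treated and saline-treated mice limma called 0 of the 10 ratios, 1 had an unadjusted p under 0.05 (9.58% of all genes), and the estimates ran from -0.57 (*Lox*, 95% CI -0.95 to -0.18, adjusted p = 0.33) to 0.31 (*P4ha1*, 95% CI -0.18 to 0.80, adjusted p = 0.77). With marrow markers as covariates, 0 of the 10 ratios were called in either comparison with wild-type, where 0.0753% of all genes were higher with saline and 0.326% with ABE. With the compared groups alone 3 were called in saline-treated mice (*Plod2*, *Fkbp10* and *Lox*), beside 3.36% of all genes higher.

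**Figure D3:**
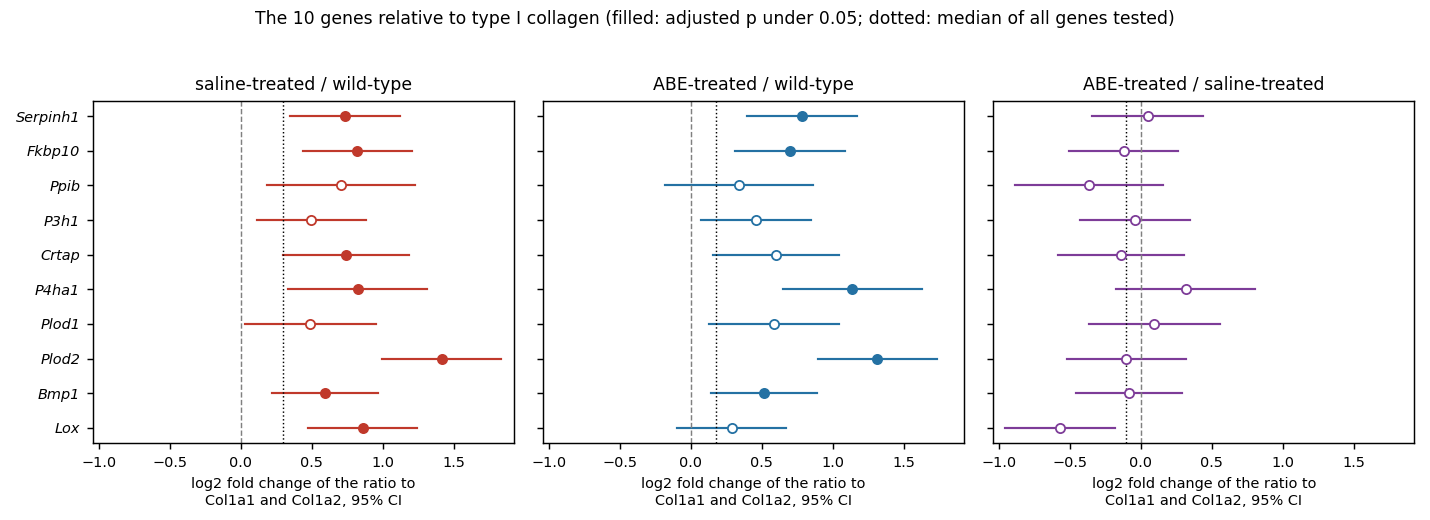
Log2 fold change of the ratio of each gene to *Col1a1* and *Col1a2* of the same library, with its 95% confidence interval, in the 3 comparisons. Filled points passed an adjusted p of 0.05 and dotted lines mark the median of all genes tested. The 10 points of both left panels lie above 0 and above the dotted line, and no point of the right panel is filled.

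Since the study describes bone by sex, each comparison was also made in males and females. In males all 10 genes were higher in saline-treated than in wild-type mice, where 26.7% of all genes were higher in males, and for all 10 the 6 saline-treated males lay above the 6 wild-type males, as was the case for 14.7% of all genes. In females 3 genes were higher, *Ppib*, *Plod2* and *P4ha1*, where 14.3% of all genes were, and only *Plod2* had no overlap (7.64% of all genes). These counts come from the fit of 6 cells of group and sex, and in a fit of the females alone *Ppib* was at 0.34 with an adjusted p of 0.11 and was not called, which left 2 genes. *Serpinh1* in males ran from 12.8 to 28.4 scaled TPM in wild-type and from 30.1 to 43.6 in saline-treated mice, which were higher by 0.95 on the log2 scale (SE 0.20, adjusted p = 3.21e-04). In females it ran from 16.6 to 42.8 and from 17.9 to 41.2, with a log2 fold change of -0.035 (95% CI -0.45 to 0.38, adjusted p = 0.92). *Lox* rose by 0.98 in males (SE 0.21, adjusted p = 2.80e-04), while the estimate in females was 0.17 (95% CI -0.25 to 0.60, adjusted p = 0.59). *Plod2* was higher in both sexes, by 1.38 in males (SE 0.17, adjusted p = 1.64e-07) and 0.90 in females (SE 0.17, adjusted p = 2.10e-04).

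The difference between the sexes itself was tested as an interaction, and limma called 0 of the 10 genes. The male change was larger than the female change for all 10, by 0.18 (*Ppib*) to 0.98 (*Serpinh1*) on the log2 scale, and adjusted p ran from 0.056 (*P3h1*) to 0.49 (*Ppib*), where 0.885% of all genes were called with a positive interaction. The median interaction of all genes was -0.019. Type I collagen had a larger one than any member, 1.28 for *Col1a1* and 1.23 for *Col1a2* (limma adjusted p = 0.11 for both). An unadjusted p under 0.05 was found for 8 of the 10 and for 22.9% of all genes. Array weights, which give less weight to libraries that vary more, called 7 of the 10 (*Serpinh1*, *P3h1*, *Crtap*, *Plod1*, *Fkbp10*, *Bmp1* and *Lox*), and limma-voom on recovered reads called *P3h1*. These fits called a positive interaction for 8.91% and 1.61% of all genes. Leaving out single libraries gave between 0 and 6 called members, the 6 without saline replicate 3, 5 without WT replicate 5 or 10 and 4 without WT replicate 3. The wild-type males lay below the wild-type females in all 10 estimates, by -0.0058 (*Ppib*) to -0.71 (*Plod2*, 95% CI -1.06 to -0.36, adjusted p = 0.061), and limma called 0 of the 10 there, where 0.201% of all genes were called lower in males. An unadjusted p under 0.05 was found for 6 of the 10 and for 14.7% of all genes. In saline-treated mice 9 of the 10 estimates were higher in males, with 0 called by limma and 5 at an unadjusted p under 0.05, as were 15.4% of all genes.

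In ABE-treated mice against wild-type, 8 genes were higher in males (all but *Ppib* and *Lox*), where 30.3% of all genes were, and 3 in females (*Plod1*, *Plod2* and *P4ha1*), where 31.3% were. *P4ha1* was higher by 1.10 in males (SE 0.11, adjusted p = 2.82e-09) and by 0.79 in females (SE 0.11, adjusted p = 8.98e-07). Its levels ran from 1.67 to 2.48 scaled TPM in wild-type and from 4.35 to 6.20 in ABE-treated males, and from 2.10 to 3.42 and from 3.95 to 6.26 in females, with no overlap in either sex. Every ABE-treated library was above every wild-type library for 20.8% of all genes in males and 8.35% in females. *Plod2* had no overlap in either sex as well (wild-type up to 2.70 and ABE-treated from 4.14 in males, 4.69 and 5.41 in females). The interaction called 0 of the 10 with limma, 9 had an unadjusted p under 0.05 (20.1% of all genes), and adjusted p ran from 0.057 (*Bmp1*) to 0.96 (*Ppib*). For *Col1a1* and *Col1a2* the interaction was 1.15 and 1.01 (limma adjusted p = 0.16 and 0.20). Array weights called 4 (*P3h1*, *Plod1*, *Plod2* and *Bmp1*) and limma-voom called *Bmp1*, where 8.07% and 1.88% of all genes had a positive interaction. Between ABE-treated and saline-treated mice *P4ha1* was higher in males by 0.39 (SE 0.11, adjusted p = 0.017) and in females by 0.41 (SE 0.11, adjusted p = 0.0054). *Plod1* passed in females alone (0.23, SE 0.082, adjusted p = 0.024) and *Ppib* in males alone (-0.36, SE 0.11, adjusted p = 0.033), and the interaction did not call either gene (adjusted p = 0.65 and 0.61, 0 of 10 members called and 0 at an unadjusted p under 0.05, beside 15.8% of all genes).

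**Figure D4:**
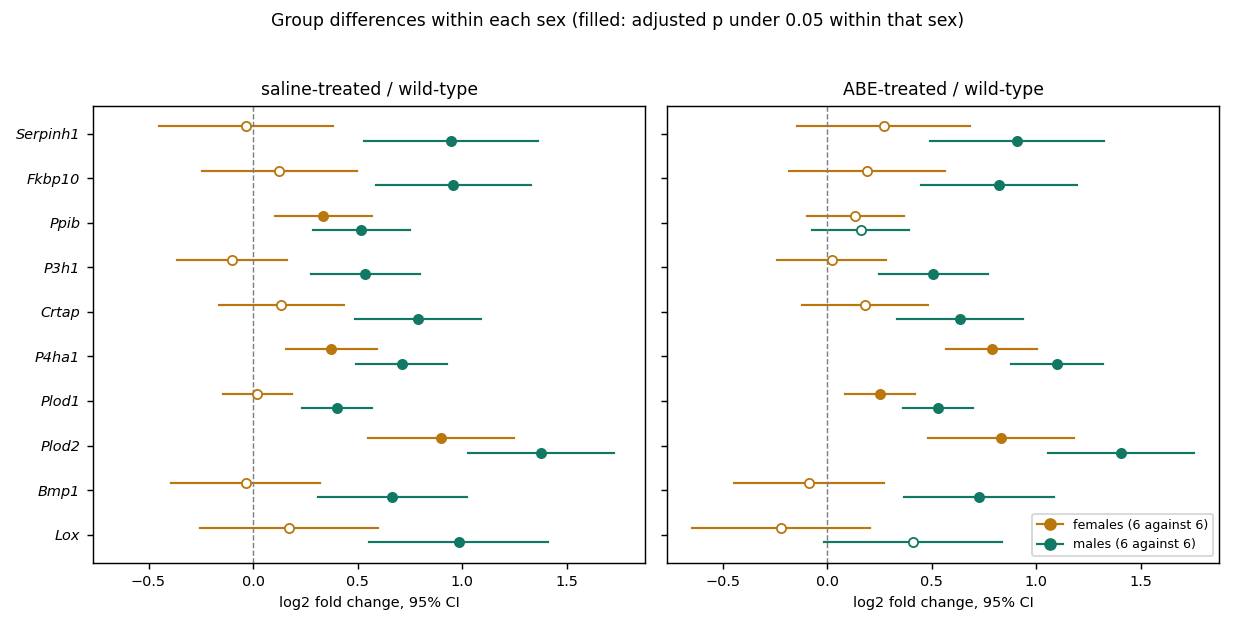
Log2 fold change against wild-type with its 95% confidence interval in females and in males, for saline-treated mice (left) and ABE-treated mice (right), 6 against 6 in each. Filled points passed an adjusted p of 0.05 within that sex. On the left all 10 male points are filled and only *Ppib*, *P4ha1* and *Plod2* are filled in females.

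Among themselves the members varied together to different degrees. Over the 36 libraries, with the mean of each group and sex removed, Pearson's r of the 45 pairs ran from -0.19 (*Ppib* and *P4ha1*) to 0.96 (*Serpinh1* and *P3h1*), with a median of 0.70. *Ppib* and *P4ha1* were least like the rest, with a median r to the other members of 0.39 and 0.40, while *Fkbp10* had the highest, at 0.88. The r to the mean of *Col1a1* and *Col1a2* was 0.86 for *P3h1* and *Bmp1* and 0.85 for *Serpinh1*, and lowest for *Ppib* (0.26) and *P4ha1* (0.32). The 10 tested genes most like the mean of the members were *Adam12*, *Sec24d*, *Sh3pxd2b*, *Maged1*, *Sp7*, *Creb3l1*, *Cdr2l*, *Nrp2*, *Kdelr3* and *Ppic*, with r between 0.93 and 0.95. These values describe the 36 libraries, which share their scale factors and their makeup of cells with all genes, and no test was made.

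Other enzymes of the same pathway, and proteins grouped with them, were followed as lists. Of 24 further hydroxylases, glycosyltransferases, isomerases, proteinases, crosslinking enzymes and proteins grouped with them, 19 were tested. Of these, 8 were higher and 1 lower in saline-treated than in wild-type mice, beside 27.7% of all genes higher. The 8 were *P4hb* (0.36, the partner subunit of P4ha1), *P4ha2* (0.28, an alternative catalytic subunit), *P3h4* (0.59), *Fkbp7* (0.62), *Fkbp9* (0.48), *Fkbp14* (0.20), *Loxl4* (0.36) and *Tgm2* (0.49, transglutaminase 2), as log2 fold changes, and the lower gene was *Colgalt1* (-0.23), which adds galactose to hydroxylysine. The 5 genes under the filter were *Pcolce2*, *Colgalt2*, *Adamts3*, *Tll1* and *Tll2*, and the first 2 were above 0.5 scaled TPM in wild-type mice. *Pcolce2*, an enhancer of propeptide removal, was at 0.71 ± 0.22 scaled TPM (SD, n = 12) in wild-type mice, 0.073 ± 0.046 with saline and 0.24 ± 0.13 with ABE, and its highest saline-treated library (0.16) lay below its lowest wild-type library (0.43). *Colgalt2* was at 0.57 ± 0.20, 0.15 ± 0.046 and 0.34 ± 0.13, with its highest saline-treated library (0.23) below its lowest wild-type library (0.32). Both were singled out by their wild-type level, which favours a fall from wild-type. Among the genes tested, 3.58% had every saline-treated library below every wild-type library. *Adamts3* had a mean of 0.41 scaled TPM in wild-type mice and 0.36 with saline. These means were 0.055 and 0.064 for *Tll1*, and 0.065 and 0.077 for *Tll2*. For these genes the libraries of both groups overlapped. None of the 5 genes was tested, so the counts do not include these differences. *Plod3*, the remaining lysyl hydroxylase, was at 0.014 (95% CI -0.064 to 0.093). In ABE-treated mice 15 of the 19 were higher than in wild-type, beside 35.0% of all genes, and 1, *Colgalt1* (-0.18), was lower. All 6 further genes grouped by symbol with the prolyl hydroxylases were among the 15. These 6 ran from *P3h2* at 0.20 to *P4ha2* at 0.91, with *P4ha3* at 0.55, *P3h3* at 0.41, *P3h4* at 0.62 and *P4hb* at 0.27. The others were *Fkbp7* (0.50), *Fkbp9* (0.64), *Fkbp14* (0.26), *Adamts2* (0.37), *Pcolce* (0.38), *Loxl1* (0.38), *Loxl3* (0.36), *Loxl4* (0.34) and *Tgm2* (0.37). Between ABE-treated and saline-treated mice 3 of the 19 were higher, beside 23.2% of all genes, *P4ha2* (0.63, SE 0.11), *P4ha3* (0.30, SE 0.12) and *P3h3* (0.26, SE 0.099), and 0 were lower, with a median of 0.060 beside -0.016 over all genes. *P4ha2* and *P4ha3* are, like *P4ha1*, catalytic subunits of prolyl 4-hydroxylase.

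*P4ha1* and *Plod2* are also known targets of the hypoxia response, and *Ppib* stands with general chaperones of the endoplasmic reticulum, so both surroundings were described. Of 10 tested hypoxia-induced genes, 4 were higher in saline-treated mice, beside 27.7% of all genes (*Ddit4*, *Ndrg1*, *Bnip3* and *Adm*, by 1.95, 1.49, 0.81 and 0.54) and 0 lower. In ABE-treated mice 9 were higher than in wild-type, beside 35.0% of all genes, from *Slc2a1* at 0.30 to *Ddit4* at 1.88, with *Ndrg1* at 1.46, *Bnip3* at 1.42, *Egln1* at 1.37, *Egln3* at 1.16, *Vegfa* at 0.98, *Adm* at 0.71 and *Pdk1* at 0.45, and *Kdm3a* was lower (-0.13). Against saline-treated mice 5 were higher, beside 23.2% of all genes, *Egln1* (0.92), *Egln3* (0.73), *Vegfa* (0.72), *Bnip3* (0.61) and *Pdk1* (0.27), and *Kdm3a* was lower (-0.091), beside 0.40 for *P4ha1* and -0.019 for *Plod2*. Skeletal muscle markers were higher in the same libraries, as given above. Of 11 general folding genes of the endoplasmic reticulum, 8 were higher in saline-treated than in wild-type mice, beside 27.7% of all genes (*Pdia3*, *Calr*, *Pdia4*, *Hspa5*, *Hsp90b1*, *Canx*, *Pdia6* and *Dnajc3*, by 0.19 to 0.37). In ABE-treated mice 3 were higher than in wild-type, beside 35.0% of all genes (*Hspa5*, *Dnajc3* and *Hsp90b1*, by 0.20 to 0.24). Against saline-treated mice 5 were lower, beside 25.1% of all genes (*Sdf2l1*, *Calr*, *Pdia3*, *Canx* and *Dnajb11*, by -0.34 to -0.14), and 0 higher. *Ppib* was at -0.28 in that comparison.

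For the lists that follow, 27.7% of all genes were higher and 24.6% lower in saline-treated than in wild-type mice. These shares were 35.0% and 35.2% for ABE-treated against wild-type mice, and 23.2% and 25.1% for ABE-treated against saline-treated mice. Of 6 genes that carry procollagen out of the endoplasmic reticulum, 4 were higher in saline-treated than in wild-type mice (*Sar1b* at 0.84, *Sec23a* at 0.45, *Sec24d* at 0.41 and *Mia3* at 0.23) and *Klhl12* was lower (-0.18). In ABE-treated mice these 4 were higher again (1.62, 0.68, 0.41 and 0.48), as was *Mia2* (0.093), and *Klhl12* was lower (-0.35). Against saline-treated mice *Sar1b* (0.78), *Mia3* (0.25) and *Sec23a* (0.23) were higher and *Klhl12* (-0.17) lower. Of 3 other tested genes of osteogenesis imperfecta, *Creb3l1* (0.70 and 0.57) and *Tmem38b* (0.48 and 0.86) were higher in both LMNA G/G groups than in wild-type, and *Tmem38b* was higher in ABE-treated than in saline-treated mice (0.38), while *Sparc* did not pass. Among 6 fibrillar collagen chains, *Col2a1* was lower in both groups (-1.001 and -0.69), and *Col3a1* was higher in ABE-treated mice than in wild-type (0.67) and saline-treated mice (1.28).

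**Figure D5:**
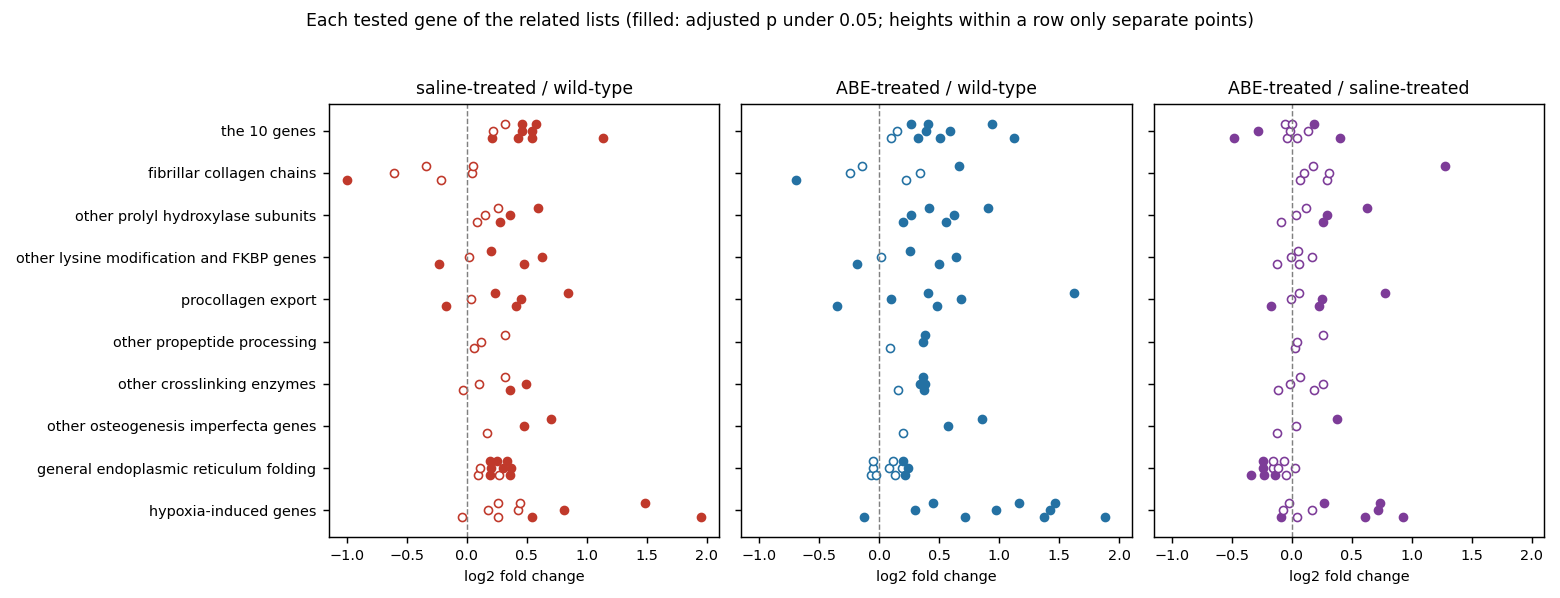
Log2 fold change of each tested gene of the 10 members and of 9 related lists, in the 3 comparisons. Each point is 1 gene, filled where the adjusted p was under 0.05. The genes grouped by symbol with the prolyl hydroxylases are all filled in the middle panel, and the folding genes lie below 0 or near it in the right panel.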

How the data were processed

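RNA of 36 tibiae was converted to stranded poly(A) libraries. The authors aligned reads to GRCm38 with STAR (2.73a in the submitters' processing notes) and counted GENCODE genes with QoRTs. The deposited unit is TPM, and how TPM were calculated is not given in the sources used here. The share of G and C bases per gene, a fraction, was also deposited by the authors and used in 1 alternative only. Within each library 100% of values above 0 were whole reads (within 0.01) divided by gene length less 218 bases and multiplied by a constant, and for 10 of 10 members that length was the union of exons in GENCODE vM21. No pair of libraries agreed within sampling noise.

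TPM were divided by median ratio factors over the 23632 genes above 0 in every library, 0.5 was added, and log2 values of genes with a mean of at least 0.5 were fitted with limma 3.58.1 (R 4.3.3, intensity trend, 36 libraries in 1 fit, sex as covariate, two-sided, Benjamini-Hochberg over all 15933 genes tested, threshold 0.05). The interaction fit had 6 cells of group and sex. The p-values set each difference against the spread between mice that the fit leaves. They do not cover the mouse series or the label NT of the wild-type mice, which both coincide with genotype. The script was tested on simulated data. The members and gene lists were chosen with earlier results of these data known. All members are named, with every list gene that passed the threshold in the comparison described and the 10 genes most like the members by Pearson's r. Alternatives were TPM as deposited, quantile normalization, removal of GC and length trends, other pseudocounts (0.1 and 1) and filters, no intensity trend, array weights, limma-voom on recovered reads, other covariates, subsets of mice and each library left out. Promoters are RefSeq entries of GRCm38.p6. Figures were drawn with matplotlib 3.10.9.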

Additional observations from a re-analysis of the deposited data

How the results depend on the processing

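The number of members that passed the threshold in the 3 comparisons (8 of 10 saline-treated and 8 of 10 ABE-treated against wild-type, 4 of 10 for ABE-treated against saline-treated mice) was 2, 2 and 2 on TPM as deposited, 3, 4 and 1 with marrow markers as covariates, and 2, 3 and 2 in females alone. With marrow markers 14.2%, 26.7% and 7.61% of all genes were higher and 14.7%, 24% and 7.09% lower. In females alone 10.6%, 29% and 16.1% were higher and 10.3%, 25.4% and 14.3% lower. With muscle markers as covariate it was 4 in ABE-treated against wild-type mice (21.3% of all genes higher and 16.9% lower) and 1 for ABE-treated against saline-treated mice (8.38% and 5.12%). With a mean of at least 5 scaled TPM, which leaves fewer genes and members to test, these 2 counts were 4 and 2. Of the genes left, 31.6% and 17.4% were higher and 35.1% and 28% lower. Leaving out 1 library gave 8 to 10, 6 to 9 and 4 in every case. The interaction with sex (0 called) gave 7 members for saline-treated and 4 for ABE-treated against wild-type with array weights, beside 8.91% and 8.07% of all genes. With limma-voom it gave 1 and 1, beside 1.61% and 1.88%. Leaving out 1 library gave 0 to 6, 0 to 1 and, for ABE-treated against saline-treated mice, 0. For saline-treated mice 1 member was called without saline replicate 10 or ABE replicates 1, 2 or 12, and for ABE-treated mice 1 without WT replicates 1, 3, 5 or 10, saline replicate 3 or ABE replicates 3, 7 or 10. Males against females in wild-type mice (0 called) gave 1 member with a pseudocount of 0.1, 6 with array weights, 1 with limma-voom and 0 to 1 with 1 library left out, the 1 without WT replicates 1, 3, 5 or 10. The first 3 of these alternatives called 0.402%, 6.64% and 0.527% of all genes lower in males.

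Relative to type I collagen, saline-treated against wild-type mice (7 called) gave 4 with a pseudocount of 1, 2 with no filter, 3 with muscle markers, 0 with marrow markers, 3 with the compared groups alone, 1 in females, 1 in males and 4 to 8 with 1 library left out. It gave 4 without WT replicates 1, 4, 6, 8, 9 or 12, and 4 without saline replicates 1, 2, 6, 9, 11 or 12. In the alternatives named before the libraries left out, 3.03%, 1.01%, 2.53%, 0.0753%, 3.36%, 4.29% and 0.904% of all genes were higher, in that order. ABE-treated against wild-type mice (5 called) gave 8 with a pseudocount of 0.1, 3 with no filter, 8 with array weights, 1 with muscle markers, 0 with marrow markers, 2 in females, 2 in males and 4 to 8 with 1 library left out, the 8 without WT replicate 11. Up to the males, 18.1%, 3.84%, 15.7%, 0.351%, 0.326%, 15.7% and 4.5% of all genes were higher, in that order. ABE-treated against saline-treated mice (0 called) gave 2 lower with array weights, *Ppib* and *Lox*, where 2.27% of all genes were higher and 8.78% lower. That comparison gave 0 with any 1 library left out. Among calls of the 3 comparisons, values changed sign for *Serpinh1* in saline-treated females alone (-0.035), for *P3h1* (-0.19), *Crtap* (-0.11), *Plod1* (-0.055), *Fkbp10* (-0.018) and *Bmp1* (-0.18) in ABE-treated against wild-type mice on TPM as deposited, for *Bmp1* in females alone (-0.087), and for *Plod1* for ABE-treated against saline-treated mice on TPM as deposited (-0.11). Members that were not called also changed sign under some alternatives, such as *P3h1* (-0.10) and *Bmp1* (-0.036) in saline-treated females alone and *Ppib* (-0.37) and *Lox* (-0.41) in ABE-treated against wild-type mice on TPM as deposited. *Plod2* and *P4ha1* stayed past the threshold in both comparisons of levels with wild-type under all 16 alternatives and with each library left out, apart from *P4ha1* where the filter at 5 scaled TPM removed it. The cause of these changes was not tested. No paired analysis was possible because the labels give no number that the groups share.

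Each member had at least 1345 reads in every library. Limits on reading the values include the spread between mice and the mouse series that coincides with genotype. Osteocyte, osteoclast, chondrocyte, tendon and fibroblast, endothelial, adipocyte, muscle and marrow markers also differed between groups. Only muscle and marrow markers were used as covariates, and the part of bone cells and of the other cells was not tested. The gene length counts all exons of a gene, such as 3305 bases for *Ppib*, so that levels per length depend on the annotation.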
